A study of Mus musculus with 7 samples.

Results

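Glucocorticoid receptor occupancy in the absence of added ligand was compared between Klf15-/- and wild-type mouse embryonic fibroblasts, using the lists of peak summits from the 3 vehicle libraries of a receptor ChIP-seq series. A site was a run of summits of these 3 lists in which neighbouring summits lay at most 200 bp apart, on chromosomes 1 to 19. This gave 15511 sites, each classed by the lists that had a summit in it. Linking all 7 lists of the series over every chromosome in the same manner gave 35316 sites.

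All cells were fibroblasts cultured from embryos of 14 to 17 days post coitum and used between passages 4 and 11, and all libraries were made with an in-house antibody to the receptor. The vehicle libraries came from wild-type cells (1 library, pooled because little material was available) and from Klf15-/- cells (2 libraries, called Klf15-/- 1 and Klf15-/- 2), each after 1 h with ethanol. The dexamethasone libraries, 2 from wild-type and 2 from Klf15-/- cells after 1 h with that synthetic glucocorticoid, took no part in forming the classes and served as a separate readout of the same positions. The labels do not say how many embryos or lines the cells came from, nor whether the Klf15-/- libraries are separate cultures. Loss of Klf15 and fibroblast identity could not be checked from lists of summits, and sites carry no gene names because no annotation of their genome build (mm9) was used here.

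The glucocorticoid receptor, encoded by Nr3c1, is a nuclear receptor that is held largely in the cytoplasm by chaperones until a glucocorticoid binds it. It then enters the nucleus and binds DNA at glucocorticoid response elements, or near other transcription factors, mostly in chromatin that is already open. Serum in culture medium can hold natural glucocorticoids, so vehicle-treated cells are not always free of active receptor. KLF15 belongs to the Krüppel-like zinc-finger factors. Its gene is itself induced by the receptor in several tissues, and the protein is known for roles in amino acid and lipid metabolism.

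On chromosomes 1 to 19 the wild-type vehicle list held 9834 summits, Klf15-/- 1 held 6477 and Klf15-/- 2 held 7693. The dexamethasone lists held 15338 to 19627. Klf15-/- 1 stood apart from the other 6 lists. In this list 364 summits were followed by another less than 200 bp away (median 161 bp), on all 19 chromosomes, against at most 4 in any other list. Summits with another less than 200 bp away on either side made up 10.9% of its list, against 0.0814% of the wild-type and 0.078% of the Klf15-/- 2 vehicle list. Counts, shares, dexamethasone readouts and chromosome shares are therefore also given with this library left out or separately for the Klf15-/- libraries. The rank comparison of the 3 vehicle lists and the named sites use all 3. With 1 wild-type library, no spread between wild-type vehicle libraries exists and no test between genotypes was made. Intervals are exact (Clopper-Pearson) 95% binomial intervals for shares and order-statistic intervals for medians. They cover counting error only, and sites are not replicates of a genotype.

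Most vehicle sites were found in only 1 of the 3 lists. All 3 lists held 2416 sites (15.6% of 15511), the wild-type list alone held 4972 (32.1%) and both Klf15-/- lists without wild type held 627 (4.04%). Klf15-/- 1 alone held 2289, Klf15-/- 2 alone held 2772, wild type and Klf15-/- 1 shared 569, and wild type and Klf15-/- 2 shared 1866. The wild-type class needs a summit in 1 list and the Klf15-/- class in 2, so their counts are not alike in construction. Like for like, the sites of a single list made up 50.6% (49.6 to 51.6%) of the 9823 wild-type sites, 38.8% (37.5 to 40.05%) of the 5901 sites of Klf15-/- 1 and 36.1% (35.0 to 37.2%) of the 7681 sites of Klf15-/- 2. With each list cut to its 6477 highest-scoring summits, these classes became nearly equal in number: 2595 wild-type, 2508 Klf15-/- 1 and 2315 Klf15-/- 2 sites, beside 2139 sites held by all 3 and 769 held by both Klf15-/- lists alone. In number of sites, the excess of wild-type-only sites over those of a single Klf15-/- list was thus smaller, though still present, in lists of equal length. As a share of the sites of each list, wild type then stood below Klf15-/- 1 and above Klf15-/- 2. Without Klf15-/- 1, wild type and Klf15-/- 2 shared 4255 sites, wild type alone held 5572 and Klf15-/- 2 alone held 3432. Without Klf15-/- 2 the corresponding counts were 2936, 6890 and 3023.

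**Figure D1:**
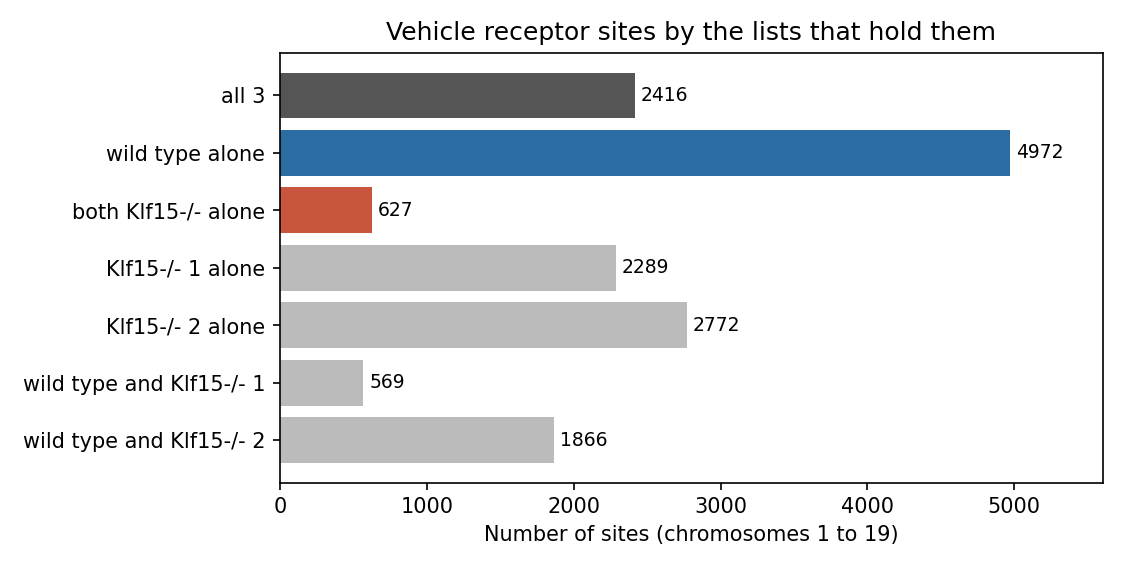
Number of vehicle sites on chromosomes 1 to 19 (horizontal axis) held by each combination of the wild-type and the 2 Klf15-/- vehicle lists. Bars are counts from single lists and have no error bars. The wild-type list alone holds the most sites (4972) and both Klf15-/- lists without wild type hold 627.

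Overlap between the genotypes was lower than that between the Klf15-/- replicates for one of these libraries and higher for the other. The Jaccard index, the sites held by both lists of a pair divided by those held by either, was 0.289 (0.280 to 0.297) between the Klf15-/- libraries. Wild type gave 0.234 (0.227 to 0.242) with Klf15-/- 1 and 0.324 (0.316 to 0.332) with Klf15-/- 2, below and above the replicate value. Of the 3043 sites held by both Klf15-/- libraries, 79.4% (77.9 to 80.8%) were also in the wild-type list. Of the 4282 sites held by wild type and Klf15-/- 2, 56.4% (54.9 to 57.9%) were in Klf15-/- 1, the shortest list. Of the 2985 sites held by wild type and Klf15-/- 1, 80.9% (79.5 to 82.3%) were in Klf15-/- 2. A Klf15-/- 2 site was found in wild type more often than in its own replicate, 55.7% against 39.6% of its sites, with 9834 summits in the wild-type list and 6477 in the replicate. A Klf15-/- 1 site was found about equally often in each, 50.6% in wild type and 51.6% in Klf15-/- 2. These shares move with the length of the list searched.

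Sites held by all 3 lists were the high-scoring ones. Scores were ranked within their own list and given as a percentile from 0 to 100. In the wild-type list, the median percentile was 81.7 (80.5 to 82.6) for sites of all 3 lists, 57.6 for those shared with Klf15-/- 2, 56.3 for those shared with Klf15-/- 1 and 35.5 (32.4 to 35.5) for wild-type-only sites. In Klf15-/- 2 it was 78.6 (77.4 to 80.2) for sites of all 3 lists, 55.3 (53.7 to 58.5) for sites of both Klf15-/- lists alone and 25.5 for sites of that list alone. The classes were closer in Klf15-/- 1, with medians of 60.7 (58.1 to 64.4), 57.3 (52.5 to 60.7) and 41.8 (38.6 to 44.2). A site missed by other lists tends to score low by the way the classes are formed, so these medians describe the classes and are not a trait of a genotype.

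Sharing climbed with score in the wild-type and Klf15-/- 2 lists, and less so in Klf15-/- 1. In the lowest score quintile of the wild-type list, 8.5% of sites were held by Klf15-/- 1 and 16.7% by Klf15-/- 2. In the highest quintile the shares were 69.6% and 83.5%. Klf15-/- 2 sites were held by wild type in 29.0% of the lowest and 88.4% of the highest quintile, and by Klf15-/- 1 in 12.7% and 82.9%. Klf15-/- 1 sites were held by Klf15-/- 2 in 38.2% of the lowest and 69.9% of the highest quintile, and by wild type in 41.6% and 62.7%. In the highest quintile of Klf15-/- 1, 23.0% of sites were in no other vehicle list, against 11.8% for wild type and 4.35% for Klf15-/- 2.

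**Figure D2:**
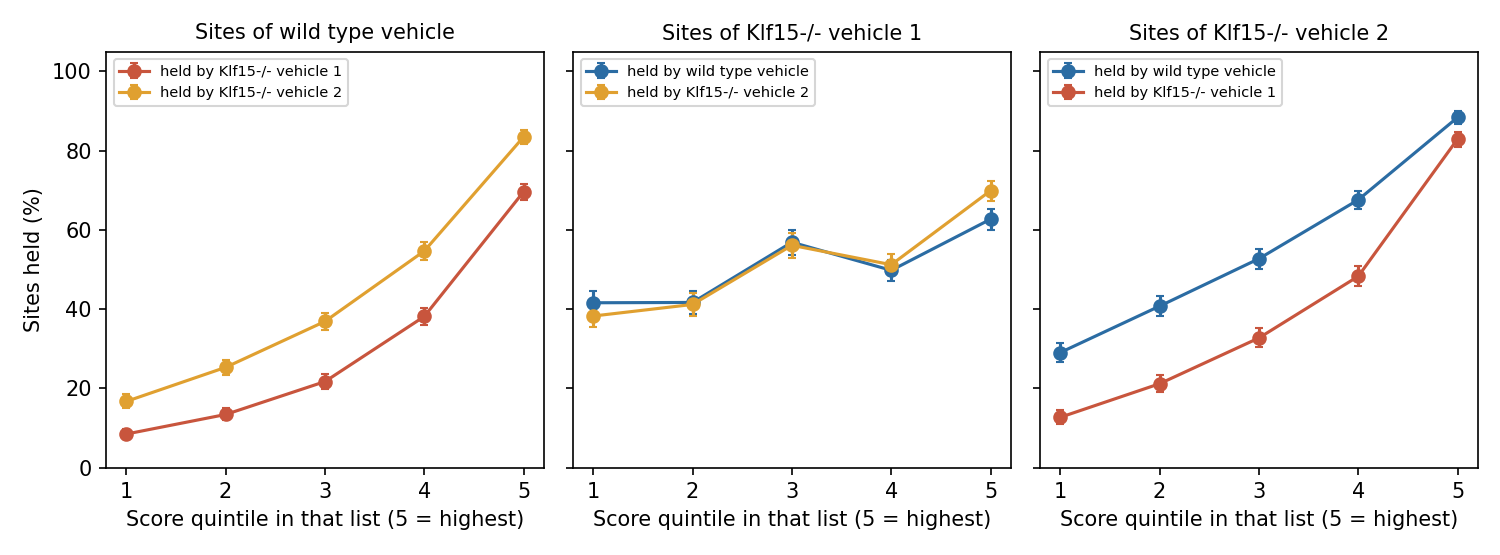
Share of the sites of each vehicle list (panels) that are held by each of the other vehicle lists (vertical axis, percent), by score quintile within the panel's list (horizontal axis, 5 is the highest). Error bars are exact 95% binomial intervals. The lines of the wild-type and Klf15-/- 2 panels climb to between 69.6% and 88.4%, and those of the Klf15-/- 1 panel are flatter and not ordered at quintiles 3 and 4.

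Few of the strongest vehicle sites were restricted to a genotype. Of 1966 wild-type sites above percentile 80, 232 were absent from both Klf15-/- lists (11.8%, 10.4 to 13.3%). Above percentile 90 these were 47 of 984 (4.78%, 3.53 to 6.30%), and above percentile 95 they were 7 of 492 (1.42%, 0.574 to 2.91%). Of the sites above a percentile in both Klf15-/- lists, those absent from wild type were 60 of 593 at percentile 80 (10.1%, 7.81 to 12.8%), 21 of 278 at 90 (7.55%, 4.74 to 11.3%) and 8 of 163 at 95 (4.91%, 2.14 to 9.44%). These shares are not larger than the disagreement of Klf15-/- 1 with the other lists: 111 of its 624 sites above percentile 90 (17.8%, 14.9 to 21.0%) were in no other vehicle list. For Klf15-/- 2 this was 11 of 771 (1.43%, 0.714 to 2.54%), below both genotype-restricted shares at that percentile.

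Sites restricted to a genotype without ligand were more often occupied after dexamethasone in that genotype. The share of each class with a summit of a dexamethasone list within 200 bp was read in the 4 dexamethasone lists. For the 627 sites of both Klf15-/- lists alone the wild-type lists gave 38.9% and 42.1% and the Klf15-/- lists 78.9% and 77.5%, or 40.5% ± 2.26 (SD, n = 2) against 78.2% ± 1.01 (n = 2). For wild-type-only sites the wild-type lists gave 53.6% and 57.4% and the Klf15-/- lists 47.2% and 48.3%, or 55.5% ± 2.74 (n = 2) against 47.7% ± 0.71 (n = 2). In both classes the lists of the genotypes did not overlap, and the order was opposite. Sites of all 3 lists were occupied nearly always, at 93.0% ± 0.88 (n = 2) in wild type and 95.01% ± 0.38 (n = 2) in Klf15-/-. Over all 15511 sites the means were 54.2% ± 1.85 (n = 2) and 59.4% ± 0.24 (n = 2). The lists of the genotypes did not overlap there either, at 52.9% and 55.5% in wild type against 59.2% and 59.6% in Klf15-/-. Nor did they for sites of all 3 lists, at 92.4% and 93.7% against 94.7% and 95.3%. Lack of overlap alone thus did not set the genotype-restricted classes apart.

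The Klf15-/- dexamethasone lists were longer, so the shares were also read in dexamethasone lists of 15338 summits each. The wild-type-only class then gave 54.1% ± 0.73 (n = 2) in wild type and 39.2% in each Klf15-/- list, a difference of 14.9 percentage points in place of 7.75. The Klf15-/- class gave 39.7% ± 1.13 (n = 2) against 73.6% ± 0.79 (n = 2), a difference of -33.9 in place of -37.7. The order also held with 1 Klf15-/- vehicle library at a time. Without Klf15-/- 1, wild-type-only sites had means of 56.9% in wild type and 50.5% in Klf15-/-, and sites of Klf15-/- 2 alone had 32.4% and 57.6%. Without Klf15-/- 2, they were 63.5% and 58.8% for wild-type-only sites and 19.8% and 34.1% for sites of Klf15-/- 1 alone, differences of 4.68 and -14.3 points. No p is given, since 2 libraries against 2 allow no exact two-sided permutation p below 1 in 3.

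**Figure D3:**
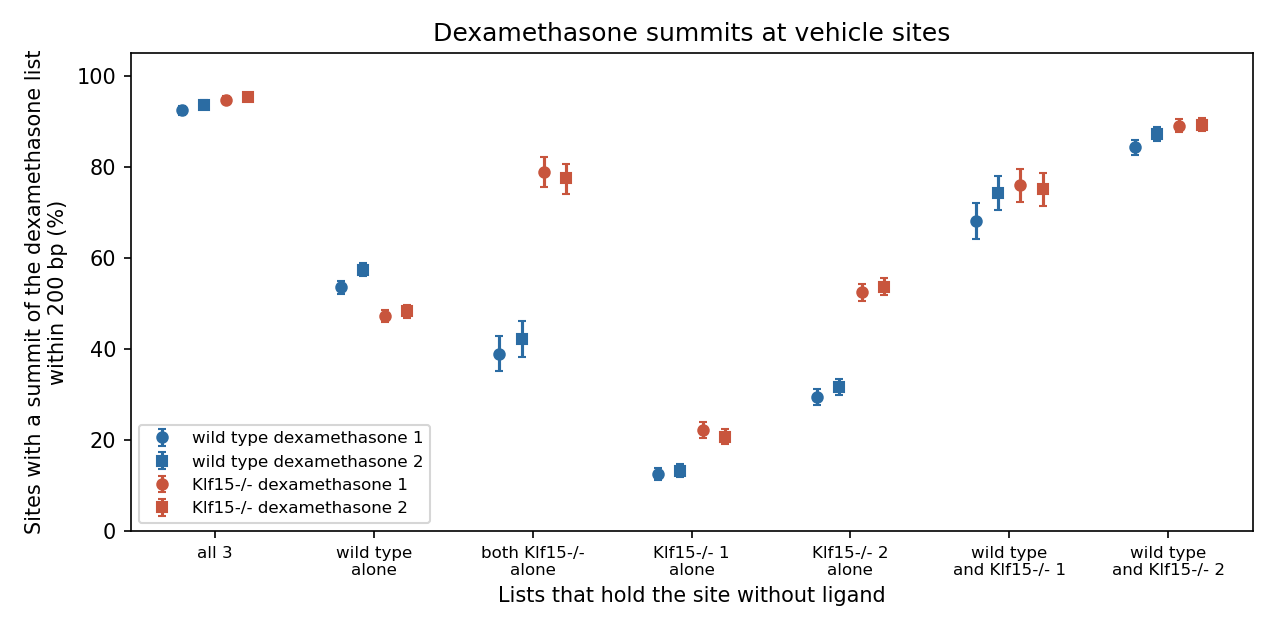
Share of vehicle sites with a dexamethasone summit within 200 bp (vertical axis, percent), for each class of sites (horizontal axis) and each of the 4 dexamethasone libraries. Error bars are exact 95% binomial intervals. Klf15-/- lists lie well above wild-type lists for sites of both Klf15-/- lists alone (77.5% and 78.9% against 38.9% and 42.1%) and below them for wild-type-only sites.

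Vehicle sites seen in a single Klf15-/- library differed between the replicates in this readout. Sites of Klf15-/- 2 alone had a dexamethasone summit in 30.5% ± 1.45 (n = 2) of cases in wild type and 53.0% ± 0.84 (n = 2) in Klf15-/-. Sites of Klf15-/- 1 alone had 12.9% ± 0.53 (n = 2) and 21.5% ± 1.05 (n = 2). Of the sites of Klf15-/- 1 alone, 68.3% (66.4 to 70.2%) had no dexamethasone summit of any library, against 34.0% (32.2 to 35.8%) for Klf15-/- 2 alone, 25.6% (24.4 to 26.8%) for wild type alone and 11.3% (8.95 to 14.1%) for both Klf15-/- lists alone.

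A stricter count asked for summits in both dexamethasone lists of a genotype and in neither of the other. Of all vehicle sites, 3.37% met this for wild type and 6.56% for Klf15-/-. Among the wild-type-only sites, 414 did so for wild type (8.33%, 7.57 to 9.13%) and 158 for Klf15-/- (3.18%, 2.71 to 3.704%). Among the sites of both Klf15-/- lists alone, 5 did so for wild type (0.797%, 0.259 to 1.85%) and 167 for Klf15-/- (26.6%, 23.2 to 30.3%). Among sites of all 3 lists, 13 and 38 did so (0.538% and 1.57%). The wild-type count was thus above its background in the wild-type-only class, and the Klf15-/- count in the Klf15-/- class. In dexamethasone lists of equal length the counts were 562 and 109 in the wild-type-only class and 7 and 163 in the Klf15-/- class. In the first of these classes the ratio of the counts changed by more than 1.5 times, in the direction of wild type. Sites of all 3 lists then gave 22 and 33, so a shift toward wild type was not confined to the wild-type-only class. Without Klf15-/- 1 the counts were 426 (7.65%) and 190 (3.41%) for wild-type-only sites. For sites of Klf15-/- 2 alone they were 34 (0.991%) and 603 (17.6%). Without Klf15-/- 2 the counts were 449 (6.52%) and 231 (3.35%) for wild-type-only sites. For sites of Klf15-/- 1 alone they were 29 (0.959%) and 296 (9.79%). A share over every vehicle site was not computed in these settings.

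The gap between genotypes widened with the score of wild-type-only sites. In their lowest wild-type quintile (1421 sites), 36.7% ± 1.5 (n = 2) had a summit in wild-type and 33.8% ± 0.2 (n = 2) in Klf15-/- dexamethasone lists. In the highest quintile (232 sites) the shares were 94.4% ± 0.6 (n = 2) and 72.4% ± 1.8 (n = 2), and 31 sites had summits in both wild-type and neither Klf15-/- dexamethasone list, while 0 had the reverse. In dexamethasone lists of equal length the difference between genotypes was 8.90 percentage points in the lowest and 30.2 in the highest quintile. Without Klf15-/- 1 it was 2.21 and 17.0 points in the lists as deposited. Without Klf15-/- 2 it was 1.19 and 10.8 points, and at equal length 6.97 in the lowest, 15.5 in the fourth and 15.1 in the highest quintile, so it no longer widened at the top. Sites of all 3 lists in the highest wild-type quintile (1276 sites) gave 97.8% and 97.1%. At low wild-type scores they showed a gap toward Klf15-/-. It was 76.5% ± 9.98 (n = 2) against 92.9% ± 1.66 (n = 2) in the lowest quintile (85 sites). In the next-to-lowest quintile (180 sites) it was 80.8% ± 1.18 (n = 2) against 94.2% ± 0.39 (n = 2). For sites of both Klf15-/- lists alone, the highest quintile of Klf15-/- 2 (112 sites) had 31.2% ± 1.3 (n = 2) in wild type and 86.6% ± 3.8 (n = 2) in Klf15-/-. Ranked in Klf15-/- 1, the highest quintile of that class (179 sites) had only 14.0% ± 0.8 (n = 2) and 58.9% ± 2.0 (n = 2), below the 52.7% and 90.3% of its next-to-lowest quintile. The order of Klf15-/- above wild type held in each quintile of either ranking.

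Where a site was found in all 4 dexamethasone lists, its rank there also followed its vehicle class. A percentile is higher in a longer list for the same place from the top, and the Klf15-/- dexamethasone lists were the longer ones, so both scales are given. Of 172 such sites from both Klf15-/- lists alone, 119 stood at a higher percentile in both Klf15-/- than in both wild-type lists (69.2%, 61.7 to 76.0%) and 12 at a lower one (6.98%). By place from the top these were 101 (58.7%, 51.0 to 66.2%) and 19 (11.0%). Of 1411 wild-type-only sites, 416 were higher by percentile in both wild-type lists (29.5%, 27.1 to 31.9%) and 266 lower (18.9%, 16.8 to 21.0%), or 591 (41.9%, 39.3 to 44.5%) and 155 (11.0%, 9.40 to 12.7%) by place. By percentile, sites of Klf15-/- 1 alone (131) were higher in Klf15-/- in 47.3% and in wild type in 13.7% of cases. For sites of Klf15-/- 2 alone (482) these were 52.5% and 8.71%. Sites shared by wild type and Klf15-/- 1 (301) gave 27.9% and 20.3%, and those shared with Klf15-/- 2 (1349) gave 29.9% and 19.4%. By percentile, every class but the wild-type-only one leaned toward Klf15-/-, so that lean alone does not set a class apart. A share over every vehicle site was not computed on either scale. Sites of all 3 lists (2072) were higher in Klf15-/- in 39.3% and in wild type in 17.9% of cases by percentile, but in 28.6% and 27.7% by place. Where vehicle occupancy was shared, the directions were thus nearly balanced by place. Many of these sites still differed in rank between the genotypes, in one direction or the other. Without Klf15-/- 1, 292 of 654 sites of Klf15-/- 2 alone were higher by place in Klf15-/- and 89 in wild type, and of 1708 wild-type-only sites 207 and 675. Without Klf15-/- 2, the counts were 147 and 51 of 311 sites of Klf15-/- 1 alone, and 424 and 976 of 2733 wild-type-only sites. By percentile that last pair was 658 and 678, so its direction rests on the scale.

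The 10 highest-ranked wild-type-only sites, taken in the order of their wild-type vehicle percentile, had a summit in both wild-type dexamethasone lists without exception. In each of the 10, both wild-type dexamethasone percentiles were above any Klf15-/- one. The first, on chromosome 7 at 124922701, stood at percentile 97.5 with vehicle, at 96.1 and 98.2 in the wild-type dexamethasone lists and at 69.0 and 27.2 in the Klf15-/- ones. The nearest Klf15-/- vehicle summits lay 292 kb away in library 1 and 39.2 kb away in library 2. The second, on chromosome 1 at 167685557, stood at 97.4 with vehicle, at 94.9 and 96.0 in wild type with dexamethasone and at 68.0 and 18.1 in Klf15-/-. The third, on chromosome 10 at 121712139, stood at 97.2, then at 89.7 and 87.2 in wild type and at 36.1 and 35.9 in Klf15-/-, with the nearest Klf15-/- vehicle summit 371 kb away. These sites were thus detected in Klf15-/- cells once dexamethasone was present, at lower ranks within the list than in wild type.

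The next sites in order, on chromosome 3 at 99190558 and chromosome 13 at 102737398, were found in Klf15-/- dexamethasone list 1 alone, at percentiles 23.6 and 71.9. The sixth, on chromosome 8 at 84407305, was at 96.3 with vehicle and at 55.6 and 71.7 in the wild-type dexamethasone lists, and was in neither Klf15-/- list. The seventh, on chromosome 17 at 79705309, was likewise in neither, and stood at 89.2 and 85.9 in wild type with dexamethasone. The remaining 3 were on chromosome 18 at 40152252, chromosome 17 at 80169458 and chromosome 5 at 36400647. Each was in 1 Klf15-/- dexamethasone list, at percentiles from 15.7 to 53.8, and between 88.2 and 97.9 in the wild-type ones. In all, 8 of the 10 had a summit in some Klf15-/- dexamethasone list and 2 had none.

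The 10 highest-ranked sites of both Klf15-/- lists alone showed the reverse order in 7 cases, with summits in both Klf15-/- and neither wild-type dexamethasone list. The first, on chromosome 17 from 36621718 to 36621816, stood at percentiles 98.5 and 99.6 in the Klf15-/- vehicle lists and at 99.1 and 98.4 in the Klf15-/- dexamethasone lists. It was in no wild-type list, with or without ligand, and the nearest wild-type vehicle summit was 170 kb away. The second, on chromosome 18 from 85885856 to 85885859, stood at 98.1 and 98.3, then at 89.0 and 86.3 with dexamethasone, also in no wild-type list. The fifth, on chromosome 13 from 4560536 to 4560651, stood at 96.7 and 98.8, then at 95.6 and 96.0. The sites chr19:14895580-14895594, chr6:31811409-31811418, chr9:13422751-13422786 and chr9:83988779-83988796 were between percentiles 70.0 and 82.7 in the Klf15-/- dexamethasone lists and in no wild-type list.

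The other sites of the 10 had weaker or mixed dexamethasone records. The seventh, on chromosome 15 from 74916125 to 74916253, stood at 96.2 and 96.5 with vehicle and had no dexamethasone summit in any library, and a wild-type vehicle summit lay 0.986 kb away. The eighth, on chromosome 10 from 105775495 to 105775506, was in Klf15-/- dexamethasone list 2 alone, at 71.6, and its nearest wild-type vehicle summit was 1300 kb away. The ninth, on chromosome 6 from 4873869 to 4873873, was at 86.7 and 87.4 in the Klf15-/- and at 86.3 in the second wild-type dexamethasone list. By place from the top it stood lower in both Klf15-/- lists (2577.5 and 2470) than in that wild-type list (2276). A wild-type vehicle summit lay 0.278 kb away, just past the linkage distance. Over the whole class, 35 of the 627 sites had a wild-type summit between 200 and 300 bp away and 80 had one within 1 kb (12.8%, 10.2 to 15.6%). Of the wild-type-only sites, 137 had a summit of either Klf15-/- list between 200 and 300 bp away and 349 within 1 kb (7.02%, 6.32 to 7.77%).

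**Figure D4:**
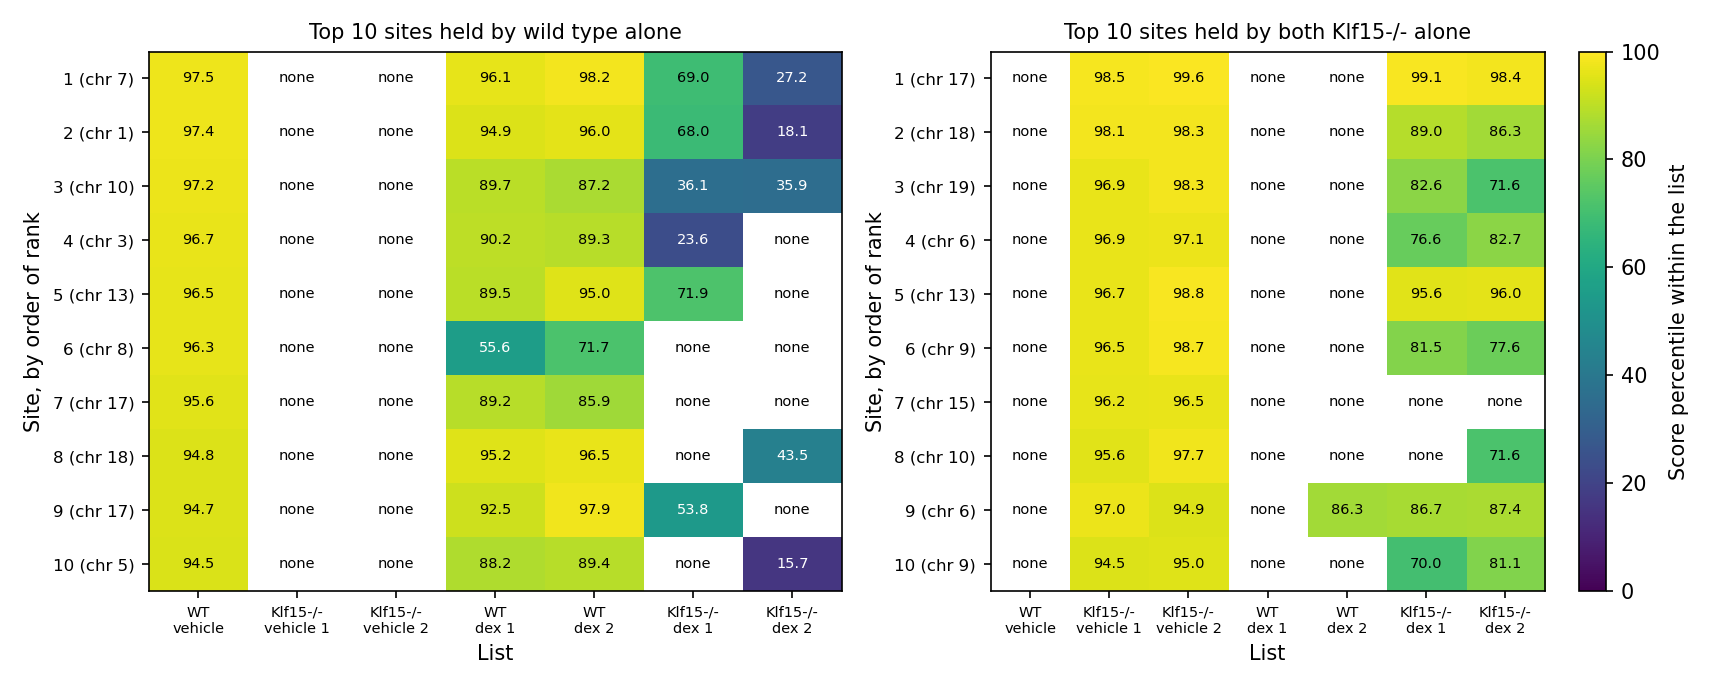
Score percentile within each list (colour and printed value) of the 10 highest-ranked wild-type-only sites (left) and the 10 highest-ranked sites of both Klf15-/- vehicle lists alone (right), one row per site with its chromosome, in the 3 vehicle and 4 dexamethasone (dex) lists; WT is wild type and "none" marks a list with no summit there. On the left the wild-type dexamethasone lists are filled in 10 of 10 rows. On the right 9 of 10 rows have no summit in either wild-type dexamethasone list.

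The strongest sites of all were shared. The 10 highest-ranked sites of all 3 lists were at or above percentile 99.79 in each vehicle list and at or above 99.46 in each dexamethasone list. The first lay on chromosome 6 from 103599202 to 103599213, at 99.96 in wild type and at 99.93 and 99.95 in Klf15-/-. Next came chr13:77578225-77578234, at 99.93, 99.99 and 99.92. The others were chr4:70039202-70039205, chr12:3109963-3110013, chr5:152537188-152537207, chr14:86598891-86598898, chr9:24346542-24346545, chr12:75905405-75905421, chr12:16754671-16754673 and chr19:23431964-23431966. The control library is not stated and no region was masked, so at these positions receptor occupancy and signal that does not need the receptor cannot be told apart.

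Ranks of the 2416 shared sites correlated moderately between any pair of vehicle lists. The sites were ranked again among themselves, so that list length played no part. Spearman's rho across sites was 0.57 between wild type and Klf15-/- 2, 0.42 between wild type and Klf15-/- 1 and 0.49 between the Klf15-/- replicates. The median difference in rank was 16.0, 19.8 and 18.5 percentile points in these pairs. The wild-type list gave the highest of the 3 ranks at 793 sites (32.8%), Klf15-/- 1 at 852 (35.3%) and Klf15-/- 2 at 763 (31.6%). Wild type stood over 20 points above both Klf15-/- lists at 280 sites (11.6%, 10.3 to 12.9%) and over 20 points below both at 258 (10.7%, 9.47 to 12.0%). Klf15-/- 1 stood that far above the other 2 lists at 341 sites (14.1%) and below at 321 (13.3%), and Klf15-/- 2 at 224 (9.27%) and 229 (9.48%). By rank, wild type differed from the Klf15-/- lists by no more than Klf15-/- 1 differed from the rest, but by somewhat more than Klf15-/- 2 did.

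**Figure D5:**
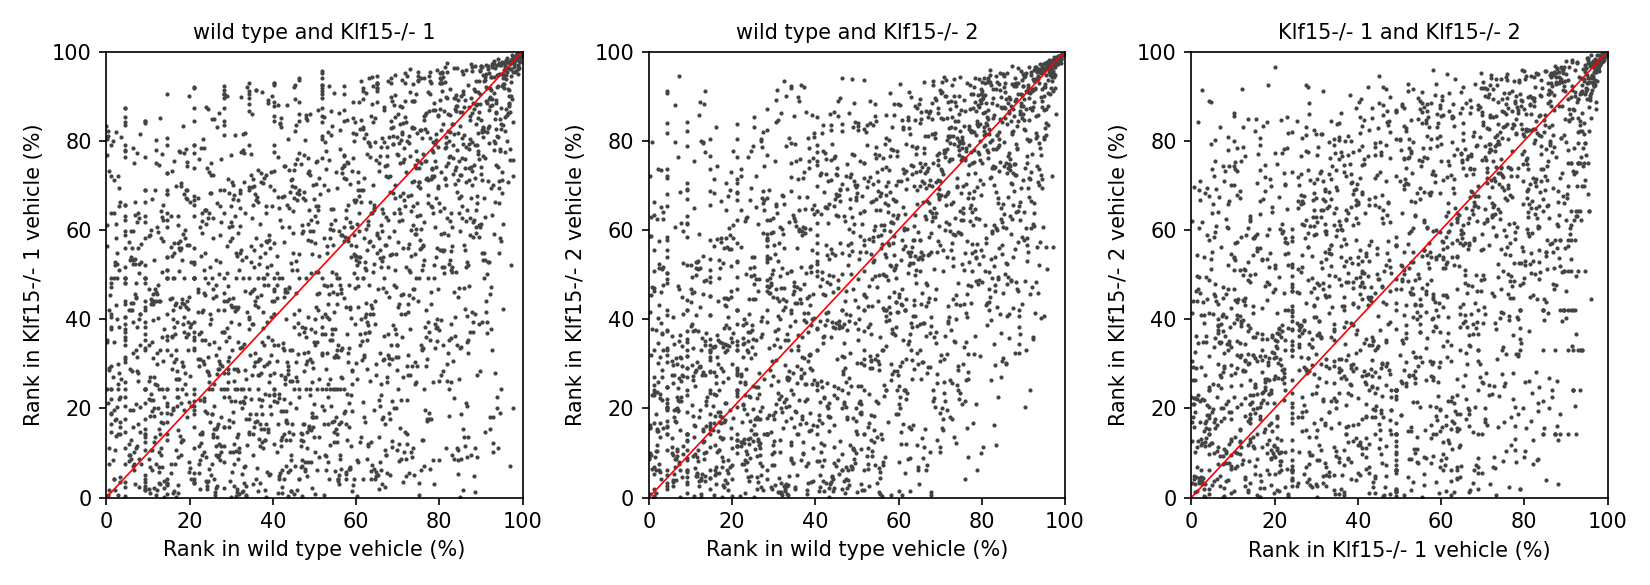
Rank of each of the 2416 sites held by all 3 vehicle lists, as a percentile among these sites, in each pair of lists (both axes); the red line marks equal rank and each point is a site. Points gather on the line at the highest ranks and scatter widely elsewhere in all 3 panels, with rho from 0.42 to 0.57; rows and columns of points are sites with tied scores.

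Shared sites that ranked higher or lower in wild type without ligand differed in the same direction with dexamethasone. Of the 258 sites ranked over 20 points lower in wild type, 183 were in all 4 dexamethasone lists. At 112 of these (61.2%, 53.7 to 68.3%) both Klf15-/- dexamethasone lists placed the site nearer the top than both wild-type ones, and at 12 (6.56%) the reverse held. Of the 280 sites ranked over 20 points higher in wild type, 257 were in all 4, with 23 (8.95%) and 143 (55.6%, 49.3 to 61.8%) respectively. The remaining 1878 shared sites, 1632 of them in all 4, gave 28.1% and 25.6%. By percentile the 3 sets gave 68.9% and 3.83%, 12.8% and 42.4%, and 40.2% and 15.6%. With wild type set against Klf15-/- 2 alone, 335 and 67 of 717 lower-ranked sites and 95 and 338 of 798 higher-ranked sites followed these orders by place. Against Klf15-/- 1 alone they were 189 and 67 of 456, and 118 and 251 of 683. On the percentile scale the higher-ranked sites of this last comparison gave 176 and 179.

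The 5 shared sites with the largest excess of the wild-type rank were chr15:50581598-50581778, chr11:53903969-53904013, chr15:53374435-53374498, chr19:38610349-38610526 and chr17:69477651-69477708. The site on chromosome 11 stood at list percentile 93.4 in wild type and at 19.7 and 18.1 in the Klf15-/- vehicle lists. With dexamethasone the wild-type lists placed it 791.5 and 383 from the top, against 794 and 797.5 for the Klf15-/- lists, so the gap with ligand was small. The site on chromosome 19 had places 1574 and 1225 in wild type, against 3451 and 2369 for Klf15-/-. At the remaining 3 sites the places of the genotypes overlapped.

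The 5 shared sites with the largest deficit of the wild-type rank kept their direction more evenly. They were chr12:16257448-16257565, chr3:80594744-80594845, chr16:51918069-51918237, chr5:47731260-47731425 and chr18:69905920-69905975. The site on chromosome 12 stood at list percentile 2.03 in wild type and at 83.4 and 90.2 in the Klf15-/- vehicle lists. With dexamethasone it was at 70.5 and 23.6 in wild type and at 93.7 and 92.3 in Klf15-/-. In 5 of 5 sites both Klf15-/- lists ranked the site above the wild-type dexamethasone lists that held it, by percentile and by place from the top, and the sites on chromosomes 3 and 5 lacked a summit in 1 wild-type dexamethasone list.

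Summit positions within shared sites were as close between genotypes as within. The highest-scoring summits of wild type and Klf15-/- 2 lay a median of 40 bp apart (37 to 42), those of wild type and Klf15-/- 1 59 bp (57 to 63) and those of the Klf15-/- replicates 63 bp (60 to 67). In the top wild-type rank quintile of shared sites the medians were 22, 40 and 38 bp, and in the bottom quintile 53, 67 and 74 bp. Pairs that include Klf15-/- 1 were thus the wider ones over all shared sites, whichever genotype they joined. More than 1 summit of Klf15-/- 1 fell in 430 of the 2416 sites of all 3 lists (17.8%), in 47 of the 627 sites of both Klf15-/- lists alone (7.496%) and in 21 of its 2289 own sites (0.917%).

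Shared sites lay closer to other vehicle sites than wild-type-only sites did. The median distance to the neighbouring site of any class was 11.2 kb (10.3 to 12.3) for sites of all 3 lists, 20.8 kb (19.5 to 22.2) for wild-type-only sites and 12.7 kb (9.001 to 17.0) for sites of both Klf15-/- lists alone, against 18.8 kb over every site. Sites of Klf15-/- 1 and of Klf15-/- 2 alone had medians of 21.5 and 26.4 kb. A neighbour within 1 kb was present at 27.3% of the sites of both Klf15-/- lists alone and 22.5% of those of Klf15-/- 1 alone, but at 9.55% of wild-type-only and 11.9% of Klf15-/- 2-only sites. At a linkage distance of 500 bp the median for both Klf15-/- lists alone was 23.0 kb, and at 100 bp it was 1.83 kb, so its spacing depended on that distance. With Klf15-/- 1 left out, the medians were 17.5 kb for shared, 21.9 kb for wild-type-only and 29.1 kb for Klf15-/- 2-only sites.

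Wild-type-only sites lay a median of 39.9 kb (37.9 to 42.3) from the nearest summit of either Klf15-/- list. The nearest wild-type summit (9834 in the list) was a median of 48.0 kb (37.7 to 63.1) from a site of both Klf15-/- lists alone. The nearest summit of Klf15-/- 2 (7693) was 52.9 kb (49.9 to 55.8) and that of Klf15-/- 1 (6477) 88.1 kb (82.7 to 93.0) from a wild-type-only site. Within the Klf15-/- genotype, sites of library 2 alone lay a median of 91.3 kb from the nearest summit of library 1, and those of library 1 alone 49.7 kb from library 2 and 52.1 kb from wild type.

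The classes were spread differently over chromosomes. Chromosomes 8, 10, 15, 17 and 19, singled out earlier from the dexamethasone lists of these data, together held 29.5% (28.2 to 30.8%) of wild-type-only sites, 24.7% (23.0 to 26.4%) of sites of all 3 lists and 18.8% (15.8 to 22.1%) of sites of both Klf15-/- lists alone. Sites of Klf15-/- 1 alone (21.7%, 20.04 to 23.5%) and of Klf15-/- 2 alone (20.6%, 19.1 to 22.2%) were also below wild type. Without Klf15-/- 1 the shares were 29.1% of wild-type-only and 20.3% of Klf15-/- 2-only sites. The gap between wild-type-only sites and those of both Klf15-/- lists alone was widest in ratio on chromosome 19, with 3.88% against 1.59% (10 sites, 0.767 to 2.91%). Chromosome 15 followed, with 6.52% against 3.51% (22 sites, 2.21 to 5.26%). In the other direction the gap was widest on chromosome 14, with 3.48% against 5.74% (36 sites, 4.05 to 7.86%). Chromosome 12 came next, with 3.02% against 4.63% (29 sites, 3.12 to 6.58%). These are extremes picked from 19 chromosomes. On the chromosomes outside 8, 10, 15, 17 and 19, the vehicle classes counted 1820 sites of all 3 lists, 3506 wild-type-only sites and 509 of both Klf15-/- lists alone.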

How the data were processed

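Receptor ChIP-seq libraries were read as single-end 50 bp reads, per the labels' protocols. CASAVA 1.4, Bowtie2 (version 2) and SAMtools and the build mm9 are named in the submitters' processing notes. How peaks were called, against which control and at what threshold, is not given in the sources used here. A deposited file lists the summits of 1 library, as positions of 1 bp with a score. The score is the authors' deposited value on an unstated scale, so it was used only as a mid-rank percentile within its list on chromosomes 1 to 19 (the highest summit of a list in a site). Read depth is unknown.

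Groups came from sample titles. Summits of the 3 vehicle lists were linked at gaps of at most 200 bp, and positions are counted from 1. Alternatives changed the linkage distance, window, list length, score summary, chromosomes and libraries used. A dexamethasone summit counted when it lay within 200 bp of a vehicle summit of the site. No model was fitted and no p-value computed. Named sites were the 10 of each main class with the highest percentile in the list where they ranked lowest, and the 5 shared sites with the largest rank excess in each direction. The classes, lists and alternatives were chosen with earlier results of these data known. Dexamethasone ranks were also compared by place from the top of the list (ties at their mean place). The linkage was tested on simulated lists. Their planted summits lay closer together between lists than many real ones, and close summits within a list were not planted. Recovery there does not show how well the linkage works on the real lists. No gene names or sequences are given, because the supplied gene table is of another build (GRCm38). Computations used numpy 2.4.6, scipy 1.17.1 and pandas 2.3.3 under Python 3.11.15, with plots from matplotlib 3.10.9.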

Additional observations from a re-analysis of the deposited data

Results flagged for a closer look

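Summits on chromosome Y, which the comparison leaves out, numbered 197 in Klf15-/- 1 and 78 in Klf15-/- 2, against 2 in the wild-type vehicle list. They stand out as signal outside the chromosomes compared, above the level in the wild-type vehicle list. The cause was not tested. Any other difference between the cells of the genotypes cannot be told apart from the loss of Klf15 here. The share of a vehicle list on chromosomes 1 to 19 was 98.0% in wild type, 88.4% in Klf15-/- 1 and 95.1% in Klf15-/- 2. On chromosome Y the Klf15-/- dexamethasone lists held 75 summits each and the wild-type ones 2 and 1. Chromosome X, also left out, held more summits than Y: 637 in Klf15-/- 1 and 307 in Klf15-/- 2, against 189 in the wild-type vehicle list. Including all chromosomes, X among them, gave 872 sites of both Klf15-/- lists alone in place of 627.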

How the results depend on the processing

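Recomputation under the alternatives gave 148 values, of which 84 kept to their bounds (1.5 times for counts, the interval or replicate SD for other values), 63 moved and 1 reversed. When each list was cut at its median score, there were 1131 sites of all 3 lists, 2334 wild-type-only sites and 350 of both Klf15-/- lists alone. The difference in dexamethasone share for sites of all 3 lists, -1.97 points in the lists as deposited, then reversed to 0.31, and was -0.538 in vehicle and -0.89 in dexamethasone lists of equal length. The share on chromosomes 8, 10, 15, 17 and 19 was 31.2% for wild-type-only sites and 15.4% for both Klf15-/- lists alone. Jaccard indices were 0.217 (wild type and Klf15-/- 1), 0.353 (wild type and Klf15-/- 2) and 0.273 (replicates). In vehicle lists of equal length these were 0.270, 0.355 and 0.307, wild-type-only sites numbered 2595, and the differences in dexamethasone share were 10.9 points for wild-type-only sites and -32.6 for the Klf15-/- class. Median percentiles there were 76.7 (wild type), 64.8 (Klf15-/- 1) for all 3, 31.6 for wild type alone and 51.7 for the Klf15-/- class in Klf15-/- 2, and neighbour distances 13.7, 26.3 and 18.6 kb for all 3, wild type alone and the Klf15-/- class.

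At linkage distances of 100 and 500 bp the Jaccard indices were 0.177 and 0.252 (wild type and Klf15-/- 1), 0.260 and 0.344 (wild type and Klf15-/- 2) and 0.210 and 0.313 (replicates), so the replicate value lay between the others throughout. Neighbour distances were 7.94 and 14.2 kb (all 3), 15.8 and 23.5 kb (wild type alone) and 1.83 and 23.0 kb (both Klf15-/-). Summit offsets were 45 and 64, 35 and 43, and 47 and 70 bp for the same pairs. The dexamethasone difference of the Klf15-/- class was -29.5 and -41.9. At 100 bp, median percentiles were 83.2 (wild type) and 80.7 (Klf15-/- 2) for all 3, and 60.2 for the Klf15-/- class in Klf15-/- 2. With dexamethasone summits within 100 bp its difference was -33.8. In dexamethasone lists of equal length it was -33.9, and that of wild-type-only sites 14.9. Using mean scores gave a replicate rho of 0.45. The cause of these shifts was not tested, beyond fewer summits or sites entering by construction.

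Leaving out either Klf15-/- vehicle library gave 2936 to 4255 shared sites, 5572 to 6890 wild-type-only sites and 3023 to 3432 Klf15-/- sites. The dexamethasone differences were -2.57 to -2.50, 4.68 to 6.40 and -25.1 to -14.3 points in the same order. No paired analysis was possible because the wild-type vehicle group has 1 library. Alternatives added after the data were seen included sites without another site within 1000 bp (differences of -2.40, 8.09 and -39.5) and Klf15-/- 1 without summits under 500 bp apart (1825, 5069 and 510 sites). Also added were checks of the dexamethasone rank order, as the percent of sites higher in Klf15-/- minus that higher in wild type by percentile. It was 21.4 for all 3, -10.6 for wild type alone and 62.2 for the Klf15-/- class. In dexamethasone lists of equal length it was 1.48, -25.4 and 51.9, and without either Klf15-/- library 17.2 to 19.9, -7.08 to -0.73 and 47.4 to 48.6.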
